A study of Mus musculus with 9 samples.

Results

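Retinal cell identity was examined through 46 marker genes, each found once by its symbol among the 22322 genes of the expression table. They comprise 16 markers of ganglion cells, 12 of photoreceptors, 2 of bipolar cells, 2 of amacrine cells, 4 of horizontal cells, 6 of Müller glia and 4 of retinal progenitors. The cultures were mouse cells of wild-type genotype, labelled as retinal ganglion cells (RGCs), that were bought from a supplier and passaged with trypsin in serum-containing medium. Normal RGCs received no treatment, aging RGCs were exposed to D-galactose, a sugar used to induce senescence, and aging RGCs + USCs medium were exposed to D-galactose and given medium conditioned by urine-derived stem cells (USCs), with the stem cells removed. Each group held 3 libraries from replicate wells, so the p-values below measure the spread between wells. No source used here gives the strain, the age of the cell source or the hours of treatment of the sequenced wells. Library totals lay between 18189616 and 22342288 estimated reads. A count of 0 in a library allows a level of up to 0.134 to 0.165 CPM (3 reads, counting error only, where CPM is the read count scaled to library size).

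The retina is built from a small set of neuron classes and 1 main glial class. Photoreceptors capture light, bipolar cells relay the signal, horizontal and amacrine cells shape it, and ganglion cells carry it through the optic nerve. Müller glia span the tissue and recycle transmitter, and progenitors give rise to all of these classes under factors such as Pax6, Rax, Six3 and Six6. Each class is recognised by transcription factors that fix its fate and by proteins of its specialised work, such as opsins, phototransduction enzymes or neurofilaments.

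Most of the retinal markers had few or no reads in any group. Of the 46, 17 had a count of 0 in all 9 libraries (37.0%, against 26.8% of all genes), 17 had some reads but failed the low-count filter, and 12 passed it and were tested. A mean FPKM (reads scaled for transcript length and depth) of at least 1 was reached by 10 members, or 21.7%, against 47.8% of all genes. FPKM is used here wherever 1 gene is compared with another.

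The 16 ganglion cell markers were divided, with 4 at a mean of 1 FPKM or more and 12 below it. Pou4f2 and Pou4f3, POU-domain factors of ganglion cells, had 0 reads in every library, as did Atoh7, the factor that makes progenitors competent to form ganglion cells, and Ebf3. Thy1, the surface protein used to purify these cells, had 2 reads in all, 1 in normal replicate 2 and 1 in normal replicate 3. Pou4f1 had 2 to 27 reads per library, or 0.131 FPKM on average. Slc17a6, the vesicular glutamate transporter of ganglion cells, had 17 reads over the 9 libraries, Sncg (gamma-synuclein) 40, Ebf1 52, Gap43, a growth-cone protein, 6, Nefm and Nefh, the medium and heavy neurofilament subunits, 63.2 and 1. The markers at 1 FPKM or more were Rbpms, an RNA-binding protein widely used to count ganglion cells, at 27.2 FPKM, Nefl at 11.9, Isl1 at 6.13 and Map2 at 4.44. Some markers of the labelled cell type were therefore present, and most were at or near 0. Whether the cells are ganglion cells was not tested.

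**Figure D1:**
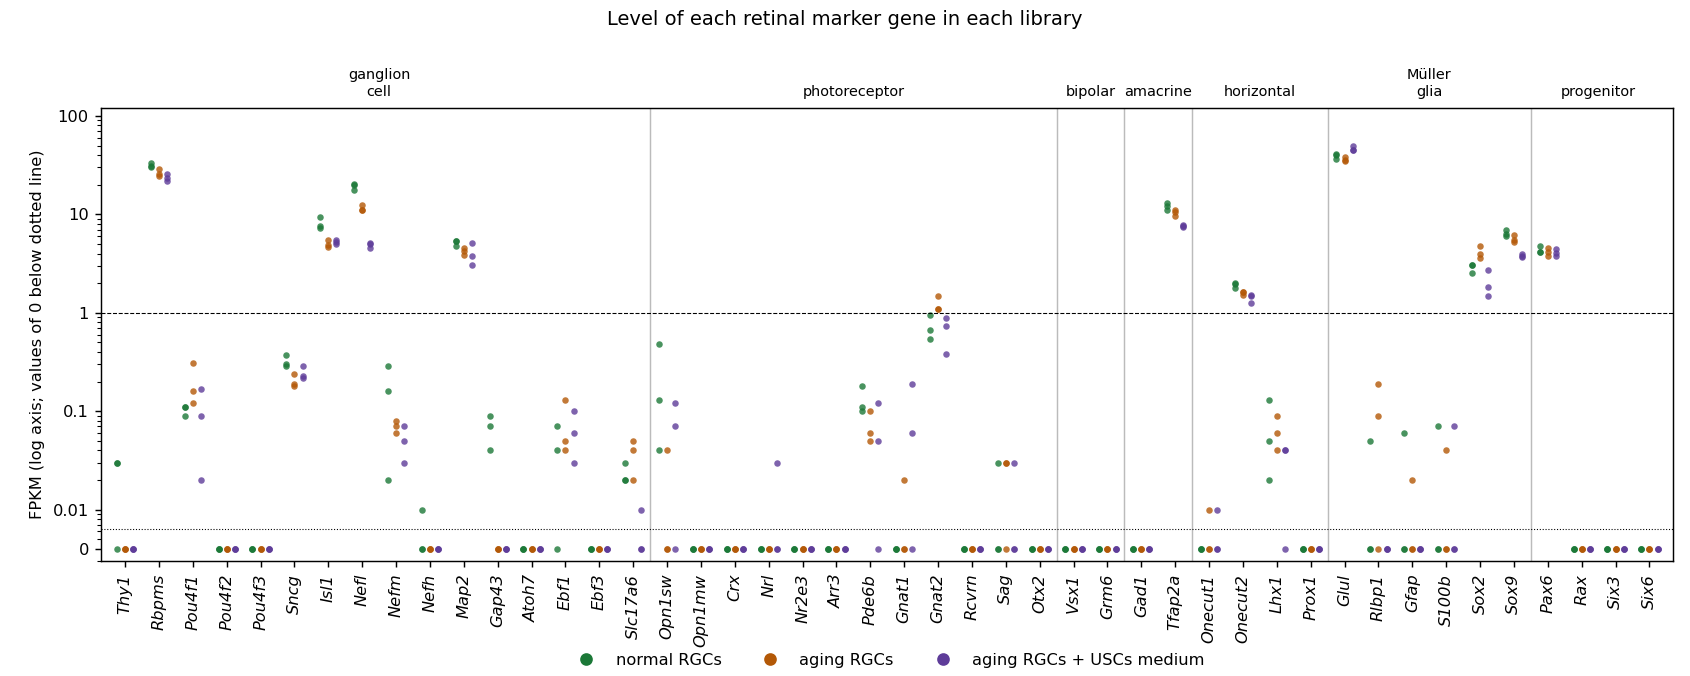
FPKM of each of the 46 retinal marker genes (log axis, values of 0 drawn below the dotted line) in each of the 9 libraries, grouped by the cell class they mark; points are libraries, coloured by group. Only 10 genes lie on average above the dashed line at 1 FPKM, and 17 lie at 0 in every library.

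Markers of the other neuron classes were present in part or not at all. Of the 12 photoreceptor markers, 6 had 0 reads throughout: Opn1mw (an opsin), Crx and Otx2 (factors that set photoreceptor fate), Nr2e3 (a rod factor), Arr3 (cone arrestin) and Rcvrn (recoverin). Nrl, the rod fate factor, had 1 read in all, Sag (rod arrestin) 4 and Gnat1, the rod transducin subunit, 5. Pde6b, a subunit of the rod phosphodiesterase, had 43 reads, and Opn1sw, the short-wavelength opsin, 25.8 estimated reads. The exons of Opn1sw share 397 bases with Calu on the opposite strand, so its reads are uncertain. Gnat2, the cone transducin subunit, was the highest of the class at 0.868 FPKM and the only photoreceptor member tested. Both bipolar markers, Vsx1 and Grm6, had 0 reads. The amacrine marker Gad1, which makes the transmitter GABA, was also at 0, whereas Tfap2a reached 10.1 FPKM. Of the horizontal cell markers, Prox1 was at 0, Onecut1 had 2 reads and Lhx1 30, while Onecut2 averaged 1.64 FPKM.

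The glial and progenitor markers were likewise split. Rlbp1, the retinaldehyde-binding protein that marks Müller glia, had 4 reads, Gfap, an intermediate filament of reactive glia, 4, and S100b 5. Glul (glutamine synthetase) was the highest of all 46 members at 40.5 FPKM, above 90.8% of all genes, and Sox9 and Sox2, factors of glia and progenitors, reached 5.30 and 2.99 FPKM. Rax, Six3 and Six6 had 0 reads in every library, while Pax6 stood at 4.20 FPKM. Genes such as Glul, Sox9, Map2 and Nefl are also transcribed outside the retina, so their level alone names no retinal class.

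Within normal RGCs the 10 members with at least 1 FPKM kept a clear order. Glul came first at 39.1 ± 2.14 FPKM (SD, n = 3), followed by Rbpms at 31.6 ± 1.37 FPKM and Nefl, the light neurofilament subunit, at 19.4 ± 1.56 FPKM. Below them were Tfap2a (12.1 ± 1.04 FPKM), Isl1 (8.14 ± 1.07 FPKM), Sox9 (6.45 ± 0.448 FPKM), Map2 (5.16 ± 0.315 FPKM), Pax6 (4.34 ± 0.346 FPKM), Sox2 (2.88 ± 0.289 FPKM) and Onecut2 (1.92 ± 0.107 FPKM). No neighbours in this order overlapped between the 3 normal libraries. With USCs medium Nefl stood at 4.90 ± 0.313 FPKM, below Tfap2a at 7.63 ± 0.177 FPKM, and its values overlapped those of Isl1 at 5.24 ± 0.261 FPKM. The neighbours that overlapped in aging RGCs were Nefl and Tfap2a, Sox9 and Isl1, Map2 and Pax6, and Pax6 and Sox2, and in the medium Pax6 and Map2, Map2 and Sox9, and Sox2 and Onecut2 as well. These are levels and carry no test.

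The sequences before the transcription start are shown for 3 members that differed between groups in unlike ways, Isl1, Sox2 and Glul, and for Pou4f2, which had no reads. The set of RefSeq (GRCm38.p6) promoters used here held an entry for 34 of the 46 members. Nefl, Rbpms, Sox9 and Onecut2, which were tested for expression, had none and are not in the counts below. The windows are the 150 bases before the RefSeq start, at chr13:116309689-116309838 (minus strand), chr3:34649845-34649994 (plus strand), chr1:153899779-153899928 (plus strand) and chr8:78436648-78436797 (minus strand). RefSeq starts differ from the GENCODE gene coordinates given below, most for Sox2, whose GENCODE gene starts at 34650405. Capitals mark CCAAT boxes (CCAAT or its reverse complement ATTGG) and GC boxes (GGGCGG or CCGCCC), counted on both strands with overlapping GC boxes counted separately.
Isl1: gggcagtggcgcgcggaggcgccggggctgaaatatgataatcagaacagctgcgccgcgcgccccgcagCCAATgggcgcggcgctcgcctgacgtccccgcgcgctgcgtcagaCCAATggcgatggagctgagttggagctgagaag
Sox2: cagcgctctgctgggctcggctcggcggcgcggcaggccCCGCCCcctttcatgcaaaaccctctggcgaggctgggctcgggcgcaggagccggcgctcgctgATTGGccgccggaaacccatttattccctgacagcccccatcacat
Glul: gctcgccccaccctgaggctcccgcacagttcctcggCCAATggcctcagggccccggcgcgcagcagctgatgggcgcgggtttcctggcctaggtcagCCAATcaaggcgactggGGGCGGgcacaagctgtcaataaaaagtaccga
Pou4f2: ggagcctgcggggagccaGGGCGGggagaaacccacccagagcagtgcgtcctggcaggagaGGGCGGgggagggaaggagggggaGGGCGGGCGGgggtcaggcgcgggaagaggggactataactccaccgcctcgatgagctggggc

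The Isl1 window held 2 CCAAT boxes and no GC box, that of Glul 2 and 1, and that of Sox2 1 of each, whereas Pou4f2 had no CCAAT box and 4 GC boxes. In all, 24.5% of the 32851 RefSeq promoter windows of this length held a CCAAT box and 28.6% a GC box. Among the members with an entry, a CCAAT box was found in 5 of the 8 tested and in 10 of the 26 that were not. A GC box was found in 4 of the 8 and 9 of the 26. A member was counted if any of its entries held the box, whereas the shares of all windows count each entry. The member counts and these shares are therefore unlike measures. These are matches of letters and no measure of binding.

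Between aging and normal RGCs, the ganglion cell markers Nefl, Isl1 and Rbpms and the interneuron markers Tfap2a and Onecut2 were lower in the D-galactose cultures, while Sox2 and Gnat2 were higher. Of the 12 members tested, 5 were lower (41.7%, against 23.0% of all 12145 genes tested) and 2 higher (16.7%, against 23.6%) at an adjusted p under 0.05 by edgeR's quasi-likelihood test. None of these members differed 2-fold (2.65% of all genes tested did so in either direction). The median log2 change (log2 of the fold difference between groups, as fitted by edgeR) of the members tested was -0.14, against 0.00 over all genes tested. In bulk cultures, fewer cells with a transcript and less of it per cell cannot be told apart.

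Nefl, on chromosome 14 from 68083863 to 68089095 (GRCm38), had 57.5, 67.5 and 65.9 CPM in the normal libraries and 36.6, 41.5 and 37.2 CPM in the aging ones. All aging values of Nefl lay below all normal values, and the log2 change was -0.73 ± 0.0647 (SE, adjusted p = 3.35e-10, edgeR). Isl1, a LIM-homeodomain factor of ganglion and bipolar cells on chromosome 13 from 116298281 to 116309689, had 17.9, 17.1 and 21.6 CPM in normal and 12.98, 11.07 and 11.80 CPM in aging cultures. The groups did not overlap for Isl1 either, with a log2 change of -0.66 ± 0.099 (SE, adjusted p = 3.38e-06, edgeR). Rbpms, on chromosome 8 from 33782643 to 33929863, had 61.6, 60.3 and 61.6 CPM in normal and 48.5, 48.7 and 51.5 CPM in aging cultures. It fell by 0.30 on the log2 scale (SE 0.0534, adjusted p = 3.18e-05, edgeR), again without overlap.

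The interneuron markers Tfap2a and Onecut2 also passed the test. Tfap2a, an AP-2 factor of amacrine cells and of epidermis and neural crest, had 34.3, 29.8 and 29.3 CPM in normal and 24.1, 27.2 and 27.7 CPM in aging cultures (log2 change -0.24, adjusted p = 0.00771, edgeR). Without normal replicate 1 or aging replicate 1 its adjusted p was 0.0834 and 0.0618. Onecut2, a homeobox factor shared by horizontal and early ganglion cells, had 31.5, 28.4 and 30.8 CPM in normal and 25.7, 26.3 and 24.6 CPM in aging cultures (log2 change -0.24, adjusted p = 0.00737, edgeR). Tested by limma on log2 FPKM, with 1 or 0.1 added, its adjusted p was 0.0928 and 0.141.

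Sox2, a stem-cell and glial factor on chromosome 3 from 34650405 to 34652461, had 6.11, 6.06 and 5.13 CPM in normal and 9.63, 8.04 and 7.29 CPM in aging cultures. Every aging value of Sox2 was above every normal one, with a log2 change of 0.52 ± 0.163 (SE, adjusted p = 0.00938, edgeR). The adjusted p of Sox2 was 0.0752 without aging replicate 1, and 0.0503 and 0.0691 in the limma fits with 1 and 0.1 added to FPKM. Gnat2 had 29, 28 and 19 reads in normal and 30, 43 and 47 in aging cultures, a log2 change of 0.80 ± 0.303 (SE, adjusted p = 0.0305, edgeR). At these low counts its call was lost when normal replicate 1 or 3 or aging replicate 2 or 3 was left out, with adjusted p of 0.0555, 0.12, 0.0876 and 0.12, and with limma on log2(FPKM + 0.1) (0.0663).

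Map2, a dendritic microtubule protein, Glul, Sox9, Pax6 and Pou4f1 did not pass the test between aging and normal RGCs. By library, Map2 had 16.7, 14.2 and 16.5 CPM in normal RGCs, Glul 97.4, 105.3 and 97.5, Sox9 27.8, 24.5 and 25.5, and Pax6 10.1, 10.1 and 12.1 against 10.4, 11.6 and 9.98 in aging RGCs. Of these genes Map2, Sox9 and Pax6 overlapped between the groups, while Glul and Pou4f1 did not. Their log2 changes were -0.10 for Map2 (95% interval -0.32 to 0.12), -0.06 for Glul (-0.15 to 0.02), -0.17 for Sox9 (-0.33 to -0.02), -0.01 for Pax6 (-0.24 to 0.22) and 0.95 for Pou4f1 (-0.05 to 1.95). For Sox9 the adjusted p was 0.0651, and it was 0.0335 without normal replicate 2, 0.0151 without aging replicate 2 and 0.0388 without TMM factors. Markers of macrophages moved with this comparison: 7 of the 9 macrophage genes tested were called lower in aging RGCs, each past a fitted 2-fold difference. Of all genes tested, 23.0% were called lower and 1.56% were called lower with a 2-fold difference. Several of the macrophage genes had few reads, such as Tyrobp with 45 in normal and 15 in aging RGCs and Fcer1g with 55 and 9. The summed level of all 12 macrophage genes lay at 46.03 to 56.27 FPKM (normal), 35.97 to 40.31 FPKM (aging) and 23.75 to 41.53 FPKM (medium). Most of this sum was Cd68, which did not pass the test and stood at 32.3 FPKM in normal and 34.1 FPKM in aging RGCs. Lyz2 stood at 11.95 and 2.44 FPKM and Adgre1 at 0.77 and 0.0167 FPKM. C1qa, C1qb and C1qc were at 0 in the aging libraries, and the part of these cells in the values of the retinal markers was not tested.

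**Figure D2:**
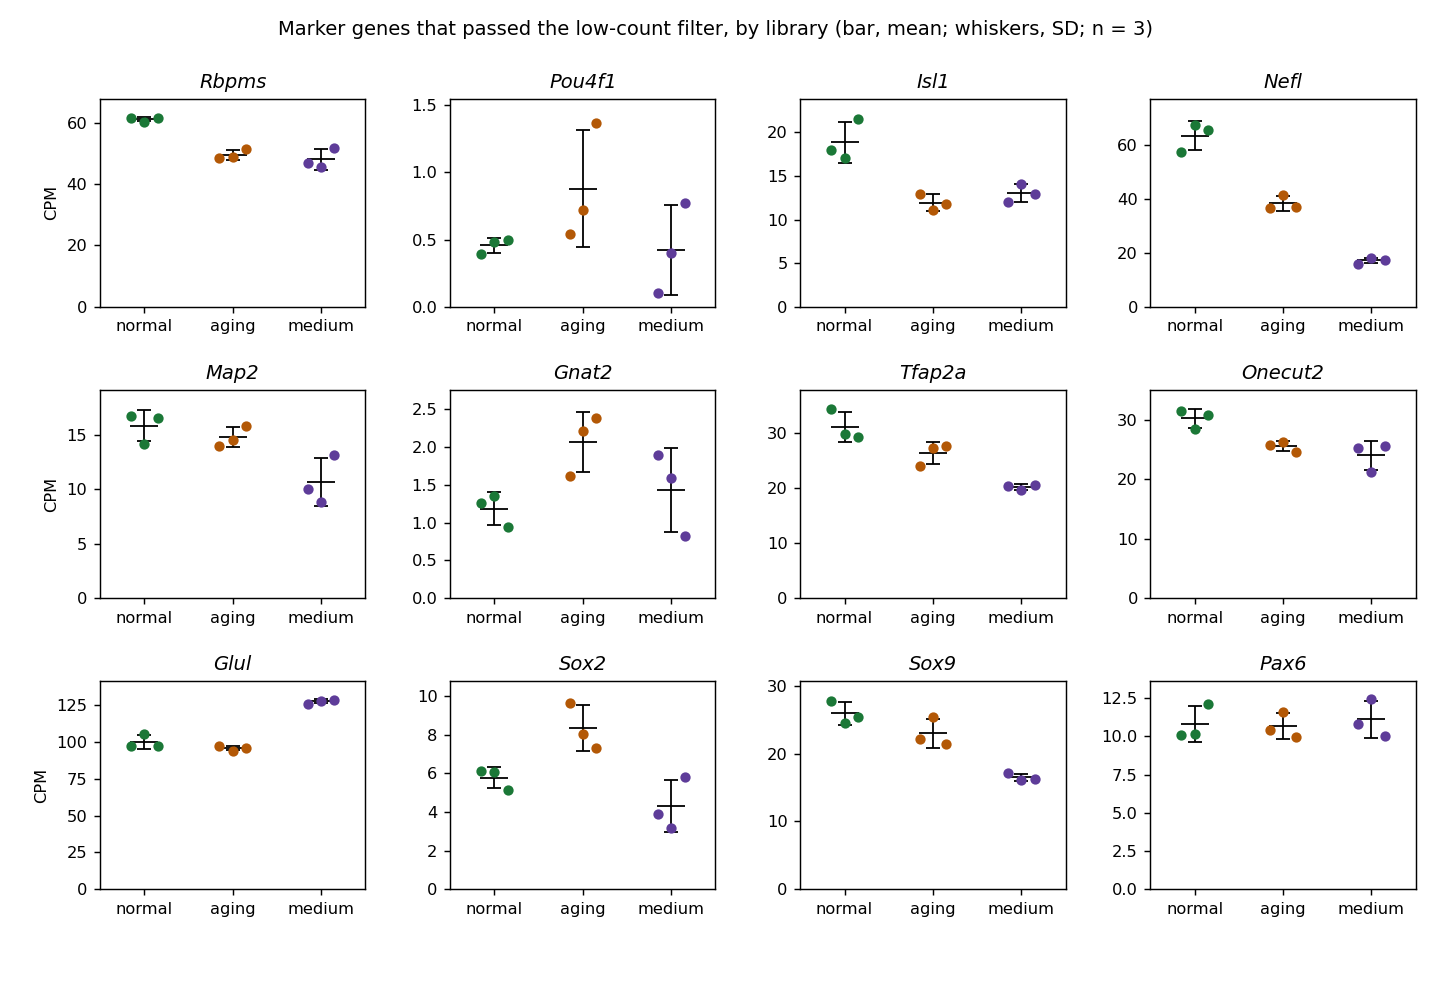
CPM of the 12 marker genes tested in normal RGCs (normal), aging RGCs (aging) and aging RGCs + USCs medium (medium); points are libraries, bars means and whiskers SD (n = 3), and every vertical axis starts at 0. Nefl steps down from 63.6 to 38.4 and 17.3 CPM, Glul is highest in the medium at 128 CPM, and Sox2 is highest in aging RGCs at 8.32 CPM.

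In the comparison of the USCs medium with aging RGCs alone, Nefl, Sox2, Sox9, Map2 and Tfap2a were lower in the medium and Glul was higher. That is 5 of the 12 members tested lower (41.7%, against 26.0% of all genes tested) and 1 higher (8.33%, against 27.1%) at an adjusted p under 0.05 by edgeR. The median log2 change of the members tested was -0.43, against -0.01 over all genes tested. A 2-fold difference was met by Nefl alone, where 5.44% of all genes tested met it in either direction. Pou4f1 joined it without aging replicate 1 and Sox2 without aging replicate 3 (2 members each), and both did without medium-treated replicate 3 (3 members). This comparison and the one above share the aging libraries, so the directions of a gene in them are not independent. The paper grew USCs in a special stem cell medium, and no sequenced group received that medium unconditioned. The base medium and what the USCs released therefore cannot be told apart. The summed mesenchymal genes lay at 227 to 239 FPKM in aging RGCs and 158 to 171 FPKM in the medium. Of the 9 macrophage genes tested, 2 were called higher in the medium and 1 lower, and medium-treated replicate 3 stood apart from the other medium libraries in these genes. The genes called higher, C1qb with 0, 0 and 15 reads and Adgre1 with 2, 2 and 32, had nearly all their medium reads in that library, and Lyz2 had 45, 20 and 241. Without that library the retinal markers called were the same 6 and Pou4f1. The part of these cells in the values of the retinal markers was not tested.

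Nefl had 16.1, 18.2 and 17.5 CPM in the medium, and the lowest aging value was 36.6 CPM. The groups stood well apart, with a log2 change of -1.155 ± 0.0758 (SE, adjusted p = 3.99e-13, edgeR), and over all alternatives it lay between -1.23 and -1.08. Nefl was therefore lower in the medium than in aging RGCs and lower in aging than in normal RGCs, with all 3 groups separate.

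Sox2 had 3.90, 3.18 and 5.79 CPM in the medium, all below the lowest aging value of 7.29 CPM. Its log2 change was -0.95 ± 0.171 (SE, adjusted p = 3.08e-05, edgeR), and -0.77 to -1.23 with 1 library left out. Sox9, an SRY-box factor of Müller glia on chromosome 11 from 112782224 to 112787760, had 22.1, 25.4 and 21.5 CPM in aging and 17.1, 16.1 and 16.2 CPM in medium-treated cultures. The medium values of Sox9 were all below the aging ones (log2 change -0.48 ± 0.0819 SE, adjusted p = 1.52e-05, edgeR). Tfap2a had 20.3, 19.6 and 20.5 CPM in the medium, below every aging value (log2 change -0.38 ± 0.0778 SE, adjusted p = 0.000135, edgeR).

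Glul, on chromosome 1 from 153899944 to 153909723, moved the other way from the remaining members that passed. It had 97.2, 94.3 and 96.1 CPM in aging and 126.1, 128.2 and 128.9 CPM in medium-treated cultures, and the groups did not overlap. The log2 change was 0.41 ± 0.0409 (SE, adjusted p = 1.61e-09, edgeR), a 1.33-fold higher level. Glul converts glutamate and ammonia to glutamine, the step by which Müller glia clear transmitter, and most other tissues use it as well. Its exons share 116 bases with Teddm2 on the opposite strand.

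Map2 depended on the unit. In CPM it had 13.95, 14.52 and 15.75 in aging and 10.02, 8.78 and 13.11 in medium-treated cultures (log2 change -0.47, adjusted p = 0.00104, edgeR). In FPKM the values were 4.22, 3.88 and 4.51 in aging and 3.75, 3.05 and 5.10 in the medium, which overlap, and limma gave a log2 change of -0.09 (adjusted p = 0.611) with a pseudocount of 1 FPKM and -0.11 (adjusted p = 0.591) with 0.1 FPKM. The FPKM that 1 read is worth at equal depth varied 1.53-fold between libraries for Map2 and 1.40-fold for Gnat2, the most among the 12, against at most 1.16-fold for the other members tested. The deposited length correction therefore differed between libraries for these genes, and which of the units describes them better was not tested.

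Rbpms, Isl1, Onecut2, Pax6, Gnat2 and Pou4f1 did not pass the test for the medium. In the medium libraries Rbpms had 46.7, 45.5 and 51.8 CPM, Isl1 12.1, 14.1 and 12.96, Onecut2 25.2, 21.2 and 25.6, and Pax6 10.8, 12.5 and 10.04. All 6 overlapped their aging values. Log2 changes were -0.05 for Rbpms (95% interval -0.16 to 0.07), 0.13 for Isl1 (-0.09 to 0.34), -0.09 for Onecut2 (-0.25 to 0.07), 0.06 for Pax6 (-0.17 to 0.29), -0.53 for Gnat2 (-1.14 to 0.08) and -1.05 for Pou4f1 (-2.08 to -0.02). Gnat2 passed in the limma fits with 1 and 0.1 added to FPKM (adjusted p of 0.0211 and 0.0299). Pou4f1 had 10, 14 and 27 reads in aging and 2, 8 and 15 in medium-treated cultures, with an adjusted p of 0.0803. It was 0.049 without aging replicate 1 and 0.0183 without medium-treated replicate 3, with log2 changes of -1.29 and -1.78.

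**Figure D3:**
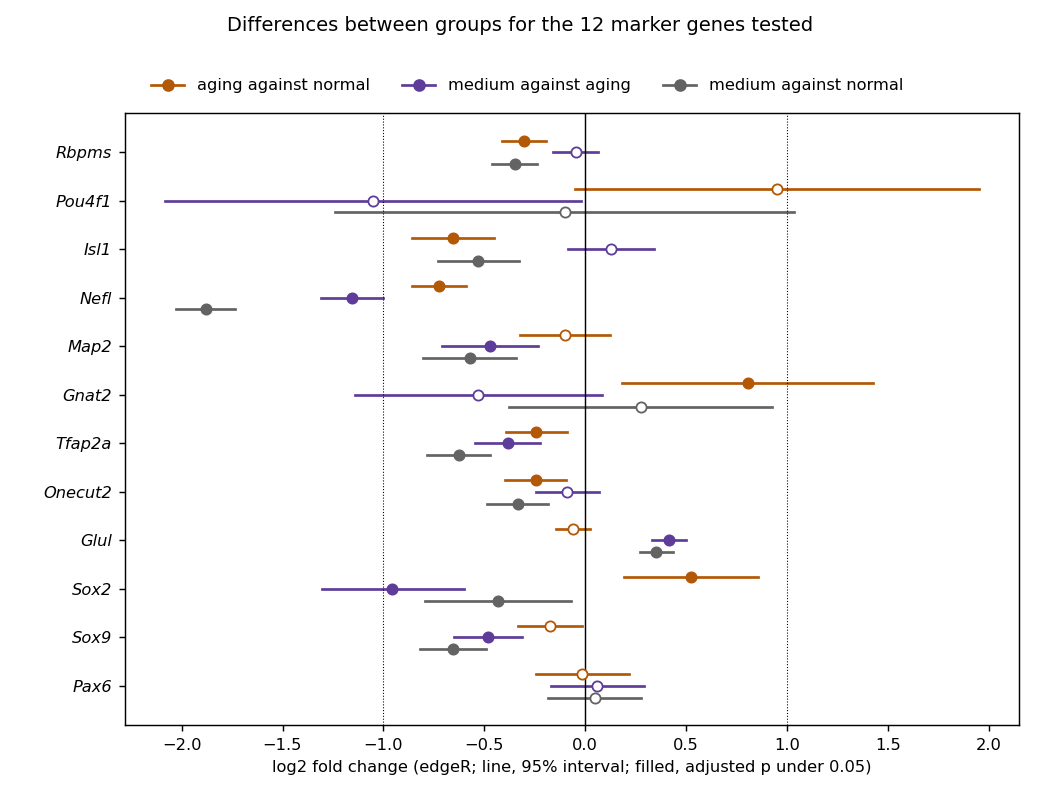
Log2 changes of the 12 marker genes tested in the 3 comparisons between groups (horizontal axis; lines are 95% intervals, filled points have an adjusted p under 0.05 by edgeR, dotted lines mark a 2-fold difference). Nefl lies furthest to the left in the medium against normal RGCs at -1.88, and the widest intervals belong to Pou4f1 and Gnat2, the members with the fewest reads.

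Set directly against normal RGCs, the medium-treated cultures had lower levels of Nefl, Isl1, Rbpms and Map2. These are the ganglion cell markers among the 46 with a mean FPKM of at least 1. Of 8 further ganglion cell and pan-neuronal genes tested outside the 46, 4 were called lower and 3 higher. Those higher included Tubb3 (log2 change 2.25, adjusted p = 1.32e-15, edgeR) and Rbpms2 (0.145, adjusted p = 0.0287, edgeR, groups overlapping). In this comparison 8 of the 12 members tested were lower (66.7%, against 29.9% of all genes tested) and 1, Glul, was higher (8.33%, against 30.6%) at an adjusted p under 0.05 by edgeR. The comparison uses the same libraries as those above. In the shared fit each log2 change is the sum of the changes there, so these counts are not independent of the earlier ones. The median log2 change of the members tested was -0.39, against -0.01 over all genes tested, and Nefl was the only member with a 2-fold difference (6.72% of all genes tested, either direction). Nefl stood at 63.6 ± 5.38 CPM (SD, n = 3) in normal RGCs and 17.25 ± 1.082 CPM in the medium, a log2 change of -1.88 ± 0.0718 (SE, adjusted p = 2.07e-18, edgeR). Isl1 stood at 18.9 ± 2.39 CPM against 13.04 ± 1.013 CPM (log2 change -0.53, adjusted p = 3.22e-05, edgeR) and Rbpms at 61.2 ± 0.72 CPM against 48.0 ± 3.33 CPM (log2 change -0.35, adjusted p = 2.11e-06, edgeR). For both genes the normal and medium values did not overlap.

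Map2 had a log2 change of -0.57 (adjusted p = 7.85e-05, edgeR), Tfap2a -0.63, Sox9 -0.65 and Onecut2 -0.33, and these groups did not overlap in CPM. Glul had a log2 change of 0.35 ± 0.0404 (SE, adjusted p = 1.61e-08, edgeR). Sox2 had a log2 change of -0.43 (adjusted p = 0.037, edgeR), but its groups overlapped. The call of Sox2 was lost with DESeq2 (0.0518), in a fit of these groups alone (0.0502), and without normal replicate 1 (0.102), normal replicate 2 (0.0762), medium-treated replicate 1 (0.12) or medium-treated replicate 2 (0.243). Pax6, Gnat2 and Pou4f1 did not pass, with log2 changes of 0.05 (95% interval -0.18 to 0.28), 0.28 (-0.38 to 0.93) and -0.10 (-1.24 to 1.03).

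The 2 neurofilament genes Nefl and Nefm could not be separated in full. Their annotated exons share 1108 bases on opposite strands, and Nefm had fractional counts in all 9 libraries that added with those of Nefl to a whole number in each. In normal replicate 1, for example, 1327.49 and 23.51 estimated reads summed to 1351. Nefm took between 0.0987% and 1.74% of the sum, and the sources used here do not say whether strand was used in counting. With the counts of both added together, the log2 change of Nefl was -0.73 between aging and normal RGCs, -1.15 for the medium against aging RGCs and -1.88 for the medium against normal RGCs.

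Members that failed the filter gave no call. When the filter was removed, 17 further members could be fitted, and none of the 51 resulting comparisons had an adjusted p under 0.05 by edgeR, while 3 had an unadjusted p under 0.05. These were Opn1sw between aging and normal RGCs (adjusted p = 0.0943) and Nefm and Gap43 between the medium and normal RGCs (adjusted p = 0.0724 and 0.1). Gap43 had 3, 1 and 2 reads in the normal libraries and 0 in the other 6. Without normal replicate 3, which had 1.32 estimated reads of Nefm against 23.51 and 11.97 in the other normal libraries, Nefm passed the filter and was called with a 2-fold difference in both comparisons with normal RGCs. Its fractional counts are shared with Nefl, which was lower in the same comparisons, so the call cannot be assigned to Nefm alone.

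A further 68 retinal genes that are not among the 46 were read in the same way. Of these, 21 had 0 reads in all libraries (30.9%, against 26.8% of all genes) and 18 reached a mean of 1 FPKM. Among genes of neurons, Rbfox3, Stmn2 and Dcx had 0 reads, whereas Nrn1 averaged 74.3 FPKM, Rbpms2 26.8, Uchl1 4.23, Syn1 3.24 and Snap25 1.35. Of the photoreceptor disc genes, Prph2 had 0 reads and Rom1 3.73 FPKM. Between aging and normal RGCs, 7 of the 24 tested were higher and 6 lower at an adjusted p under 0.05 by edgeR, where 23.6% and 23.0% of all genes tested were. In the medium against aging RGCs 6 were higher and 11 lower, where 27.1% and 26.0% of all genes tested were. In the medium against normal RGCs 8 were higher and 12 lower, where 30.6% and 29.9% of all genes tested were. The median log2 changes in these comparisons were -0.07, -0.27 and -0.45. Outside the ganglion cell and pan-neuronal genes, Slc6a9 (log2 change -1.52) and Apoe (-1.39) were called at least 2-fold lower in aging than normal RGCs. Pde6a (1.09) was at least 2-fold higher. In the medium against aging RGCs, Pde6a (-1.97), Tfap2c (-1.64) and Septin4 (-1.43) were at least 2-fold lower, each below 1 FPKM on average. Tubb3, a tubulin of neurons, stood at 1.41 FPKM in aging and 10.9 FPKM in medium-treated RGCs (log2 change 3.03, adjusted p = 3.07e-17, edgeR), and was lower in aging than in normal RGCs (log2 change -0.78, adjusted p = 0.000132, edgeR). Of the 8 ganglion cell and pan-neuronal genes tested here, 3 were called higher in the medium than in aging RGCs and 3 lower. Besides Tubb3, Irx1 (log2 change 1.385, adjusted p = 0.00174, edgeR) and Rbpms2 (0.236, adjusted p = 0.00105, edgeR) were higher. Nrn1, Syn1 and Spp1 were lower, with log2 changes of -0.69 (adjusted p = 4.33e-14, edgeR), -0.48 (adjusted p = 0.000454, edgeR) and -0.73 (adjusted p = 7.27e-17, edgeR). The highest of these genes by FPKM were Vim, an intermediate filament of many cell types, at 864 FPKM, and Spp1, a secreted matrix protein, at 661 FPKM.

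Markers of cells outside the neural retina were set beside these levels. Of 14 epithelial genes 6 reached 1 FPKM, led by the keratins Krt8 (285 FPKM), Krt18 and Krt19, and their summed level lay at 665 to 720 FPKM (normal), 643 to 662 FPKM (aging) and 687 to 714 FPKM (medium). The leading genes moved in opposite directions within this sum. In these groups Krt8 stood at 215, 290 and 350 FPKM, Krt18 at 229, 178 and 188, and Krt19 at 238, 176 and 157. Cdh1, the adhesion protein of epithelia, had 11 reads over the 9 libraries, and Krt5 and Esrp1 had 0. Of 12 mesenchymal genes 6 reached 1 FPKM, led by Fn1 (fibronectin, 89.4 FPKM), and their sum lay at 281 to 307 FPKM (normal), 227 to 239 FPKM (aging) and 158 to 171 FPKM (medium). The part of such cells in the values of the retinal markers was not tested. The proliferation marker Mki67 stood at 74.0, 87.8 and 91.1 FPKM in the 3 groups. Of 10 genes of retinal pigment epithelium, 2 reached 1 FPKM, with Rpe65, the visual-cycle isomerase, at 1 read and Lrat, Dct and Ttr at 0, and of 8 lens genes 2 did so, led by Cryab. Of 6 endothelial genes only Cdh5 averaged above 1 FPKM, at 3.52 FPKM in normal, 2.08 in aging and 0.703 in medium-treated RGCs. The summed levels of all 16 ganglion cell markers, by comparison, lay at 64.06 to 66.23 FPKM (normal), 45.85 to 49.96 FPKM (aging) and 36.00 to 41.77 FPKM (medium). Most of this sum was Rbpms (31.6, 26.4 and 23.7 FPKM in these groups) and Nefl (19.4, 11.5 and 4.90 FPKM). It therefore describes these genes more than the class, and Rbpms and Isl1 were not called between aging RGCs and the medium.

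**Figure D4:**
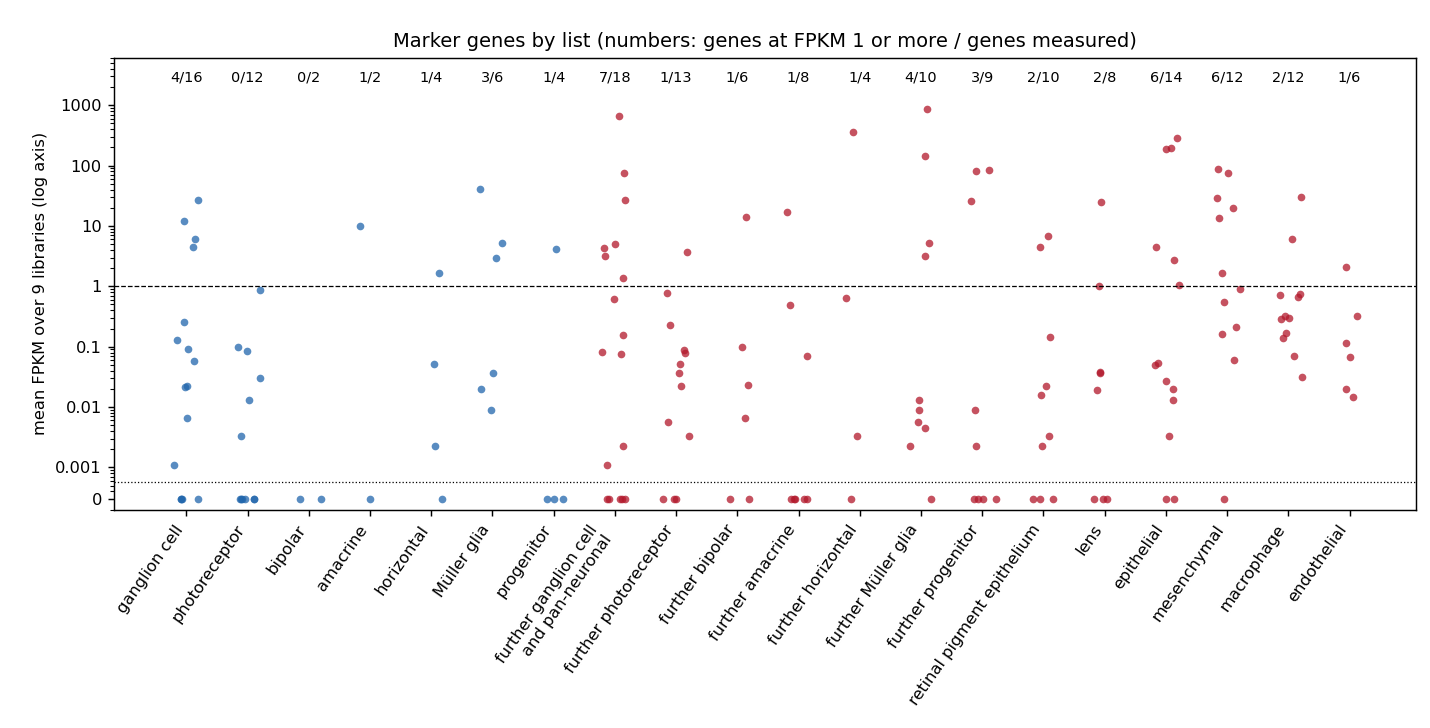
Mean FPKM over the 9 libraries (log axis, 0 below the dotted line) of the 46 retinal markers (blue, by class) and of further marker lists (red); each point is a gene, and numbers give genes at 1 FPKM or more out of genes measured. Ganglion cell markers reach 1 FPKM in 4 of 16 genes and photoreceptor markers in 0 of 12, against 6 of 14 epithelial and 6 of 12 mesenchymal genes.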

How the data were processed

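RNA enriched by oligo(dT) was sequenced from 9 libraries, 3 per group by their titles. The authors deposited for 22322 genes an expected count (an estimated read number, not normalized) and an FPKM value (corrected for transcript length and depth). Per the labels the build was mm10; no source used here names the aligner, the counting program or the use of strand. The marker genes, their classes and the further lists were chosen with earlier results of these data known. All members were described; members with a mean FPKM of at least 1 or a 2-fold difference were given by library. Several genes of the further lists were chosen after their values were seen. Isl1 was counted with the ganglion cell markers only.

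Expected counts were rounded (6.92% to 7.38% of values per library were not whole) and tested with edgeR 4.0.16 in R 4.3.3: filterByExpr kept 12145 genes, TMM factors were applied, and the 9 libraries were fitted together by the quasi-likelihood method with a mean for each group, with Benjamini-Hochberg adjustment over all genes tested. CPM are relative to TMM-scaled library size. Standard errors were derived from the F statistic. Alternatives were DESeq2 1.42.0, limma 3.58.1 on log2(FPKM + 1 or 0.1), no TMM or upper-quartile factors, no filter or 1 CPM in 3 libraries, fits of single comparisons, the replicate number as a block, each library left out and, added after the data were seen, Nefl and Nefm summed. The fit was tested on simulated data. Coordinates are from GENCODE M21 (GRCm38), in which all 46 members matched by identifier. Levels of pairs of libraries in a group differed by more than sampling noise (2.21 to 4.90 times), so none was counted once.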

Additional observations from a re-analysis of the deposited data

How the results depend on the processing

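With each library left out in turn, the members with a 2-fold difference numbered 0 to 1 between aging and normal RGCs, 1 to 3 for the medium against aging RGCs and 1 to 2 for the medium against normal RGCs. Nefl was among them in each such fit of the last 2 comparisons. Nefm, whose reads could not be separated in full from those of Nefl, joined without normal replicate 3. Pou4f1 joined without aging replicate 1, Sox2 without aging replicate 3, and Pou4f1 and Sox2 without medium-treated replicate 3. For the medium against aging RGCs the number was 2, Nefl and Sox2, without TMM factors and with limma on log2(FPKM + 0.1). In that limma fit, 4 members passed between aging and normal RGCs, against 7; the cause was not tested. A threshold of 0.1 or 0.5 FPKM in place of 1 gave 13 and 11 detected members. Leaving out a library kept this number at 10.

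Directions turned only for members that had not passed. For Pax6 the medium against aging RGCs gave a log2 change of -0.019 without TMM factors, and -0.028 and -0.034 in the limma fits with 1 and 0.1 added to FPKM, and lay between -0.028 and 0.131 with a library left out. For the medium against normal RGCs Pax6 gave -0.055 without TMM factors, -0.073 and -0.088 in the same limma fits, -0.001 without normal replicate 1, and -0.045 to 0.136 over the libraries left out. Between aging and normal RGCs it gave 0.074 without normal replicate 3, 0.033 without aging replicate 3 and otherwise down to -0.081. Gnat2 turned to -0.048 and -0.125 in the limma fits for the medium against normal RGCs, and Pou4f1 to 0.351 without medium-treated replicate 1, the other libraries giving down to -0.833.

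Deviations from the group means correlated between same-numbered wells at -0.048 to 0.047, which gives no pairing. A fit with the replicate number as a block passed 7, 6 and 9 members in the 3 comparisons, 0, 1 and 1 of them with a 2-fold difference, the same numbers as without it. Depth limits the members with under 50 reads per library, Pou4f1 and Gnat2 among those tested.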
